A study of Rattus norvegicus with 3 samples.

Results

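The Calcr-positive D2 medium spiny neurons were 94 of the 10806 nuclei kept from 3 single-nucleus RNA libraries of the rat nucleus accumbens. They were chosen by UMI counts of the same nuclei, a UMI being 1 captured RNA molecule. A nucleus needed at least 500 genes, at most 5% mitochondrial UMIs and at least 20 UMIs summed over Ppp1r1b, Bcl11b, Pde10a, Rgs9 and Rarb, called the spiny sum here. It also needed a D2 sum over Drd2, Adora2a, Penk and Gpr6 of at least 2 UMIs that exceeded the D1 sum over Drd1, Ebf1, Pdyn and Isl1. At most 1 UMI was allowed over Casz1, Hmcn1 and Otof, genes of the eccentric spiny neurons, and at least 1 Calcr UMI was required. Tac1, which the rule also lists on the D1 side, was not used here. The rule was met by 28 nuclei of the low anxiety library, 18 of the high anxiety library and 48 of the urolithin A library. The 1143 nuclei that met the same rule with no Calcr UMI are set beside them, and both sets together are the D2 gate of 1237 nuclei. A nucleus with no Calcr UMI may still express Calcr below this depth.

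All animals were outbred Wistar rats of 16 weeks of age, sorted by behaviour in an elevated plus maze and an open field with an unfamiliar object. The low anxiety and high anxiety groups were untreated, and the urolithin A group consisted of high anxiety rats that received urolithin A for 2 months. Each group was 1 library of nuclei from accumbens punches pooled over 5 hemispheres, so no value has a replicate, library and group cannot be told apart, and the number of rats behind a pool was not known here. For this reason no test and no p-value is given, and every interval is a 95% interval of counting error only.

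D2 medium spiny neurons are the GABA-releasing projection neurons of the striatum that carry the dopamine D2 receptor and an adenosine receptor encoded by Adora2a and make enkephalin from Penk. Calcr encodes the calcitonin receptor, a G protein-coupled receptor that becomes an amylin receptor when it pairs with a receptor activity-modifying protein of the Ramp family. Amylin given into the accumbens is known to act on feeding. Urolithin A is a product of gut bacteria from plant ellagitannins and is studied for its action on mitochondria.

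Libraries held between 3619 and 4066 nuclei as deposited and between 16728049 and 22095390 UMIs. Pairs of libraries shared 4 to 6 cell barcodes and no barcode of a Calcr-positive nucleus. The Calcr-positive nuclei carried 195423 UMIs in the low anxiety library, 141378 in the high anxiety library and 344457 in the urolithin A library. Their median depth was 6073, 7943.5 and 6544 UMIs per nucleus, against 6391, 7413 and 6964.5 in Calcr-zero nuclei. In the low anxiety library 1 nucleus of 19450 UMIs held 9.95% of the Calcr-positive total. Possible doublets were kept: 2, 1 and 3 of the Calcr-positive nuclei were among the highest doublet scores of their libraries.

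Calcr was found in a small part of the D2 gate in every library. Of the D2-gate nuclei, 28 of 399 had Calcr in the low anxiety library, or 7.02% (exact binomial 95% interval 4.71 to 9.98). The share was 18 of 414, or 4.35% (2.60 to 6.78), in the high anxiety library. In the urolithin A library 48 of 424 had Calcr, or 11.3% (8.47 to 14.7). The interval of the urolithin A library lay above that of the high anxiety library, and the interval of the low anxiety library overlapped both. With at least 2 Calcr UMIs required the shares were 5.01% (3.09 to 7.64), 3.38% (1.86 to 5.61) and 7.08% (4.82 to 9.95), and the intervals of the urolithin A and high anxiety libraries overlapped. After every nucleus of the gate was thinned to 4000 UMIs, the shares were 5.60%, 4.46% and 10.2%, in the same order. With the thinning done before the gate they were 1.97%, 1.15% and 5.84%, and with a spiny sum of at least 10 they were 11.4%, 7.19% and 16.5%.

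The shares in the D2 gate lay above those of 2 other sets of nuclei, with intervals that did not overlap within a library before depth was matched. Among D1-gate nuclei, chosen by the mirrored rule, Calcr was found in 10 of 425 (2.35%), 2 of 452 (0.442%) and 11 of 475 (2.32%). Their median depths were 6618, 8113.5 and 7384 UMIs. Oligodendrocytes, at median depths of 1861, 2336 and 2192.5 UMIs, had Calcr in 2 of 719 nuclei, 0 of 1081, which allows a share of up to 0.278%, and 1 of 954. A further set reached the spiny sum with more than 1 UMI of the eccentric genes. It had Calcr in 2 of 390 (0.513%), 7 of 494 (1.42%, 0.572 to 2.90) and 11 of 327 (3.36%). In the high anxiety library the interval of this set overlapped that of the D2 gate. At 4000 UMIs the D1 gate had 1.95% (0.846 to 3.81), 0.224% (0.00566 to 1.24) and 1.91% (0.877 to 3.60). The D2 gate then had intervals of 3.50 to 8.43, 2.66 to 6.95 and 7.48 to 13.6, so those of the low anxiety library overlapped. Oligodendrocytes should lack the gene, but at 4000 UMIs 0 of 26, 0 of 95 and 0 of 64 allow shares of up to 11.5%, 3.16% and 4.69%, so they set no low limit at this depth.

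**Figure D1:**
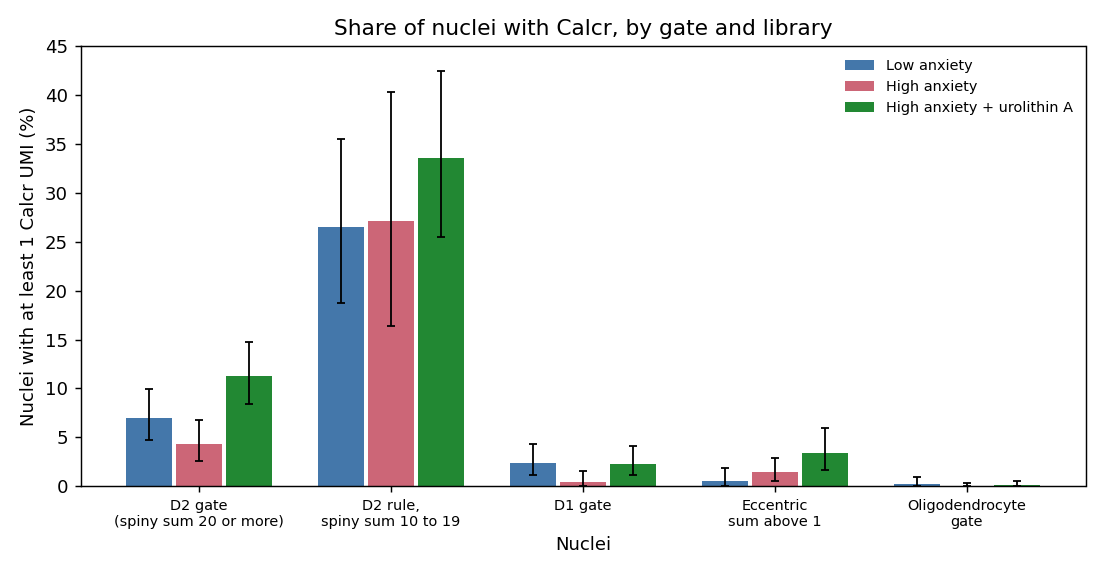
Percent of nuclei with at least 1 Calcr UMI (y axis) in 5 sets of nuclei (x axis), 1 bar per library, with exact binomial 95% intervals. In each library the D2 nuclei just below the spiny threshold have the highest share, between 26.5% and 33.6%, against 4.35% to 11.3% in the D2 gate.

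Most nuclei with Calcr lay outside the gate. Nuclei that met the D2 rule but had a spiny sum of 10 to 19 carried Calcr in 31 of 117 (26.5%), 16 of 59 (27.1%) and 43 of 128 (33.6%). Of all nuclei with Calcr, 28 of 112, 18 of 60 and 48 of 156 lay inside the gate, or 25.0%, 30.0% and 30.8%. In those 3 libraries 72, 32 and 84 Calcr nuclei had a spiny sum below 20, of which 51, 16 and 56 met the D2 rule and the eccentric limit, against the 28, 18 and 48 kept. The nuclei described here are thus the ones with more spiny-neuron RNA among Calcr nuclei. Inside the gate 6, 4 and 10 of them had a spiny sum of 20 to 22. Of the Calcr nuclei that reached the spiny sum, 2, 7 and 11 were left out by the limit on the eccentric genes and 10, 3 and 13 of the rest because they failed the D2 rule. Just inside the eccentric limit 6, 1 and 5 nuclei had 1 UMI of those genes, and just outside it 1, 2 and 7 D2 nuclei with Calcr had 2.

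Calcr UMIs per nucleus were low but not all single molecules. Of the 28 nuclei in the low anxiety library 8 had 1 Calcr UMI, 7 had 2 and 13 had 3 or more. In the high anxiety library the counts were 4, 3 and 11, and in the urolithin A library 18, 9 and 21. The highest nucleus had 14, 22 and 14 Calcr UMIs. Summed over the nuclei, Calcr reached 501 CPM (UMIs of a gene scaled to a total of 1e6 over the set) in the low anxiety, 771 CPM in the high anxiety and 424 CPM in the urolithin A library. These levels follow from the rule, which required a Calcr UMI.

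The D2 genes of the rule chose the nuclei, so their presence is a description and no check of the label. Drd2 was found in 100%, 94.4% and 85.4% of the nuclei at 481, 509 and 389 CPM, beside 523, 535 and 471 CPM in Calcr-zero nuclei. Penk, the enkephalin precursor, stood at 1755, 1641 and 2169 CPM, beside 2076, 1934 and 2336 CPM. Adora2a, the adenosine receptor gene, stood at 307, 340 and 314 CPM, beside 369, 410 and 401 CPM. All 3 genes were somewhat lower with Calcr than without it in each library. No UMI of the D1 genes, which the rule also limits, was found in 24 of 28, 17 of 18 and 44 of 48 nuclei.

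Spiny-neuron genes of the rule were lower in Calcr-positive nuclei although both sets had passed the same threshold. The median spiny sum was 26, 25 and 28 UMIs with Calcr and 38, 46.5 and 37 UMIs without it. Pde10a, the phosphodiesterase that is abundant in these neurons, stood at 1361, 1337 and 1153 CPM, beside 2769, 2875 and 2208 CPM. Rgs9, a regulator of G protein signalling, stood at 368, 226 and 328 CPM, beside 651, 725 and 518 CPM. Rarb, a retinoic acid receptor, was close in the low anxiety library (2072 and 2254 CPM) and the urolithin A library (2084 and 2146 CPM) and lower with Calcr in the high anxiety library (1712 and 2215 CPM). Thus Pde10a and Rgs9 were lower with Calcr in every library by more than Rarb was.

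**Figure D2:**
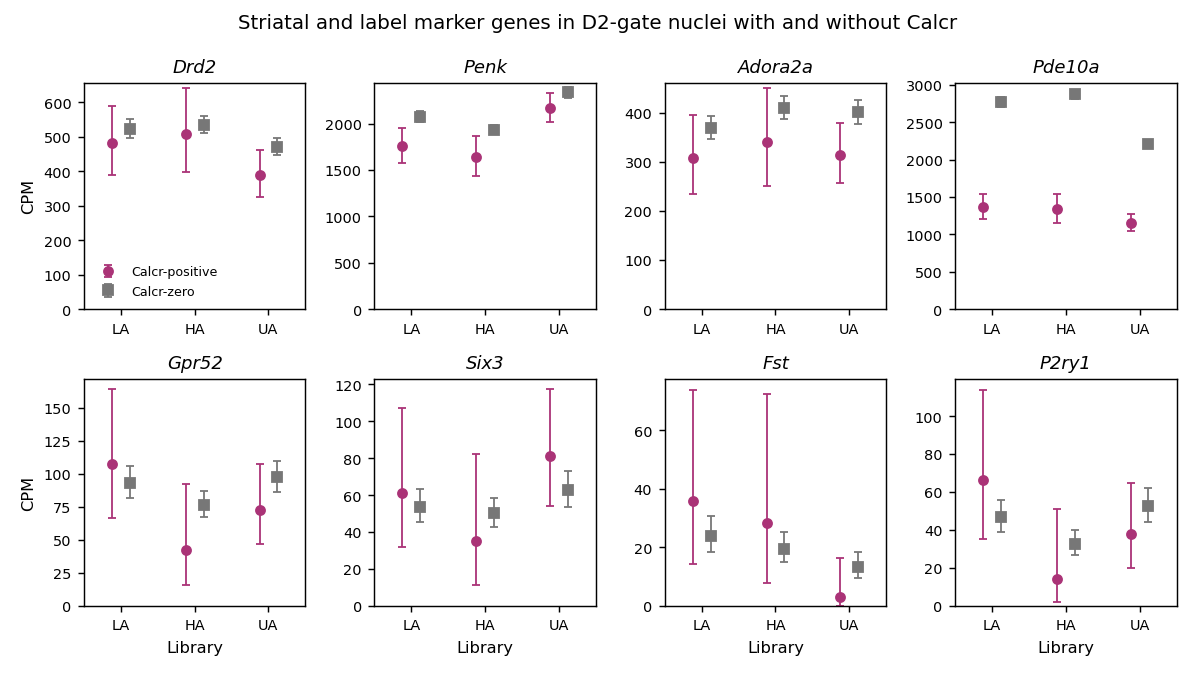
CPM of 8 genes (y axes, from 0) in the low anxiety (LA), high anxiety (HA) and urolithin A (UA) libraries, with exact Poisson 95% intervals; circles are Calcr-positive and squares Calcr-zero D2-gate nuclei. Pde10a is lower in Calcr-positive nuclei in all 3 libraries (1361, 1337 and 1153 CPM against 2769, 2875 and 2208 CPM), whereas the intervals of Gpr52, Six3 and P2ry1 overlap in each library.

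D2 genes that the rule did not use were compared between the sets. Of 13 such genes on a fixed list 8 were measured and 0 stood at least 1.5-fold apart the same way in all 3 libraries. Over all measured genes 0.788% were higher and 1.44% lower, so a count of 0 says little of these 8. Gpr52, an orphan receptor of D2 neurons, stood at 107, 42.4 and 72.6 CPM with Calcr and 93.2, 76.7 and 97.3 CPM without it. Six3, a transcription factor of D2 neuron development, stood at 61.4, 35.4 and 81.3 CPM, beside 53.8, 50.1 and 62.8 CPM. Oprd1, the delta opioid receptor, stood at 159, 99.0 and 134 CPM, beside 181, 225 and 206 CPM. Oprd1 was thus lower with Calcr in each library, and its ratio passed 1.5-fold in the high anxiety and urolithin A libraries but not in the low anxiety library. Gprin3 was not on that list and was chosen after its values were seen. It stood at 128, 92.0 and 98.7 CPM, beside 334, 301 and 268 CPM, and was called lower with Calcr.

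The further markers that came with the label did not set Calcr-positive nuclei apart. Fst, which encodes the activin-binding protein follistatin, had 7, 4 and 1 UMIs in the 3 libraries, or 35.8, 28.3 and 2.90 CPM, beside 23.99, 19.6 and 13.4 CPM in Calcr-zero nuclei. P2ry1, a purinergic receptor for ADP, had 13, 2 and 13 UMIs, or 66.5, 14.1 and 37.7 CPM, beside 46.8, 32.7 and 52.6 CPM. Sdr16c6, a gene of the short-chain dehydrogenase family, is listed under 2 gene identifiers: one had 0 UMIs in both sets and the other had 4, 3 and 7 UMIs, or 20.5, 21.2 and 20.3 CPM, beside 13.9, 18.0 and 26.1 CPM. Fst was higher with Calcr in 2 libraries and lower in the urolithin A library, and P2ry1 was higher only in the low anxiety library. At these counts no difference was detectable.

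Partners and relatives of the calcitonin receptor were measured next to it. Ramp1, the partner that turns the receptor into an amylin receptor, stood at 220, 233 and 314 CPM, beside 225, 272 and 293 CPM in Calcr-zero nuclei. It was found in 75.0%, 61.1% and 81.2% of Calcr-positive nuclei. Thinned to 4000 UMIs, it was found in 63.0%, 44.4% and 66.7% of Calcr-positive and in 58.3%, 61.9% and 65.5% of Calcr-zero nuclei, with overlapping intervals in each library. Its log2 ratio was -0.03, -0.22 and 0.10. Ramp3 had 0 UMIs in Calcr-positive nuclei of every library, which allows up to 15.4, 21.2 and 8.71 CPM, beside 0.774, 0.963 and 2.90 CPM. Calcrl, the related receptor for CGRP and adrenomedullin, had 3, 6 and 8 UMIs, or 15.4, 42.4 and 23.2 CPM, beside 11.2, 4.81 and 13.8 CPM, and in the high anxiety library 3 of the 6 UMIs came from 1 nucleus.

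Calcr-positive nuclei were also compared with the Calcr-zero nuclei over all genes outside the rule, as a description with no test, since nuclei of both sets were chosen by their own UMIs. A gene was measured at a mean of at least 20 CPM and called where it stood at least 1.5-fold apart the same way in all 3 libraries. Of 7106 genes 56 were higher (0.788%) and 102 lower (1.44%) with Calcr. In 20 of the higher and 45 of the lower genes the counting interval also left out no difference in every library, and the values below are from these unless said. With TMM scaling, which raises the effective totals of Calcr-positive nuclei by 0.15, 0.14 and 0.05 on the log2 scale, 33 genes were higher and 140 lower. All 102 genes called lower and 33 of the 56 called higher were called the same way there.

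Slc8a1 and Pde1a, which act on calcium and on cyclic nucleotides, were among the higher genes. Slc8a1, a sodium-calcium exchanger, stood at 594, 516 and 485 CPM with Calcr and at 204, 146 and 233 CPM without it. Its log2 ratios were 1.54 (1.24 to 1.83), 1.82 (1.44 to 2.18) and 1.06 (0.80 to 1.31), and it was found in 89.3%, 100% and 87.5% of Calcr-positive nuclei. Pde1a, a calmodulin-dependent phosphodiesterase, stood at 220, 439 and 433 CPM, beside 109, 95.9 and 125 CPM. Pde1a was thus lowest with Calcr in the low anxiety library, with log2 ratios of 1.02, 2.19 and 1.79.

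Of the 47 genes fixed for calmodulin, kinase and phosphodiesterase signalling 36 were measured. Among these 5 were called higher and 1 lower, beside 0.788% and 1.44% of all measured genes. The list's medians were -0.05, -0.19 and -0.11 beside 0.03, 0.01 and 0.01 over all measured genes. The related Pde1c had log2 ratios of 0.74, 1.77 and 0.73, but 31 of its 111, 54 of its 136 and 52 of its 233 UMIs came from 1 nucleus in each library. Dgkg, a diacylglycerol kinase, had log2 ratios of 0.88, 1.55 and 0.96. Plcb1, a phospholipase C that acts downstream of Gq-coupled receptors, was the lower member at -0.72, -1.34 and -0.71. Gnai1, an inhibitory G protein subunit, stood at 143, 141 and 189 CPM, beside 69.6, 54.5 and 84.2 CPM.

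Genes of peptide secretion and of the ventral striatum were higher in part. Scg2, which encodes the dense-core granule protein secretogranin, stood at 430, 332 and 514 CPM with Calcr, beside 226, 183 and 260 CPM. Its log2 ratios were close in the 3 libraries, at 0.93, 0.86 and 0.98. Nnat, the imprinted gene of neuronatin, stood at 246, 212 and 218 CPM, beside 85.9, 61.6 and 108 CPM. Zdbf2, another imprinted gene, stood at 230, 375 and 427 CPM, beside 145, 167 and 201 CPM. Of 36 neuropeptide and hormone genes 18 were measured and 2 were called higher, beside 0.788% of all measured genes. They were Scg2 and the prohormone convertase Pcsk1, whose 6, 15 and 14 UMIs gave intervals that did not all leave out 0.

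Of 21 ventral striatum and shell genes 16 were measured, 2 were called higher (Nnat and Zdbf2) and 0 lower, with medians of 0.19, 0.45 and 0.43. Among all measured genes 0.788% were higher and 1.44% lower. Wfs1, an endoplasmic reticulum protein gene, stood at 261, 219 and 377 CPM, beside 179, 129 and 190 CPM, and missed the fold in the low anxiety library alone. Cartpt, the precursor of the CART peptide, stood at 783, 523 and 798 CPM, beside 705, 559 and 676 CPM, with little between the sets. Nts, the neurotensin precursor, stood at 205, 77.8 and 102 CPM, beside 154, 179 and 120 CPM, and pointed both ways. Of 13 dorsal striatum and core genes 6 were measured and 0 were called.

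Adhesion and guidance genes were called in both directions. Cntnap5a, a neurexin-family adhesion gene, stood at 926, 1337 and 1054 CPM with Calcr, beside 403, 304 and 474 CPM. Its log2 ratios were 1.20 (0.97 to 1.43), 2.14 (1.90 to 2.36) and 1.15 (0.98 to 1.32), and it was found in 92.9%, 100% and 91.7% of Calcr-positive nuclei, beside 71.4%, 65.2% and 75.8%. Of 41 guidance genes 30 were measured, 2 were called higher (the plexin Plxnc1 and the netrin receptor Unc5d) and 1 lower (the ephrin receptor Epha7). Among all measured genes 0.788% were higher and 1.44% lower. Unc5d had log2 ratios of 0.68, 1.23 and 0.76, and Epha7 of -1.07, -0.93 and -0.96. Lgr6, an R-spondin receptor of Wnt signalling, rested on 14, 6 and 16 UMIs, at 71.6, 42.4 and 46.4 CPM, beside 20.9, 7.06 and 18.1 CPM. Nhs, a regulator of actin, stood at 189, 120 and 128 CPM, beside 49.9, 51.7 and 67.9 CPM.

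**Figure D3:**
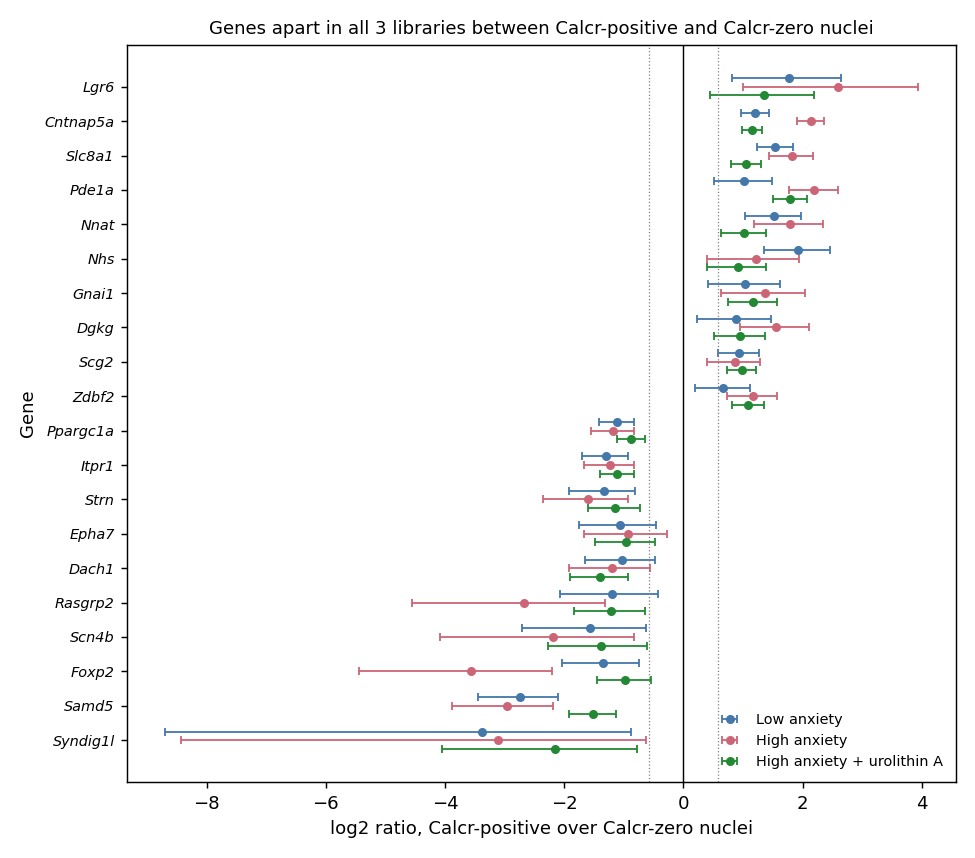
log2 ratio of CPM in Calcr-positive over Calcr-zero D2-gate nuclei (x axis) for 20 genes (y axis), 1 point per library with its exact 95% counting interval; dotted lines mark 1.5-fold. The 10 upper genes are higher and the 10 lower genes lower with Calcr in all 3 libraries, Slc8a1 at 1.54, 1.82 and 1.06 and Samd5 at -2.74, -2.97 and -1.51.

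Lower genes included several that are abundant in medium spiny neurons. Of 27 such genes outside the rule 25 were measured, 5 were called lower and 0 higher, beside 1.44% and 0.788% of all measured genes. The medians were -0.36, -0.53 and -0.31. Scn4b, the sodium channel beta subunit of the striatum, stood at 46.1, 28.3 and 40.6 CPM with Calcr, beside 137, 130 and 106 CPM. Rasgrp2, a calcium-regulated guanine nucleotide exchange factor, stood at 71.6, 28.3 and 75.5 CPM, beside 164, 181 and 175 CPM. Itpr1, the IP3 receptor of the endoplasmic reticulum, stood at 307, 347 and 305 CPM, beside 758, 812 and 657 CPM. Strn, which encodes striatin, had log2 ratios of -1.34, -1.60 and -1.15. Rasd2, which encodes the small GTPase Rhes, had 2, 2 and 5 UMIs and intervals that did not all leave out 0. The spiny sum, which the rule reads, was lower in the same nuclei. Ratios against Calcr-zero nuclei matched on that sum are given further below, and the cause of the lower levels was not tested.

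Not every gene of spiny neurons was that much lower, as 6 genes chosen after their values were seen show. Adcy5, the adenylyl cyclase of these neurons, stood at 599, 630 and 668 CPM, beside 874, 909 and 801 CPM, lower in each library but short of the fold. Foxp1, a transcription factor of striatal neurons, stood at 1463, 1224 and 1126 CPM, beside 1505, 1564 and 1398 CPM. Ptpn5, the striatal phosphatase STEP, stood at 420, 382 and 386 CPM, beside 438, 434 and 402 CPM. Meis2, a homeobox gene, stood at 1765, 1938 and 1675 CPM, beside 1725, 1765 and 1691 CPM. Gad1 and Gad2, the enzymes that make GABA, stood at 287, 248 and 293 CPM and at 384, 269 and 363 CPM, beside 294, 283 and 277 CPM and 306, 258 and 322 CPM. The levels of Ptpn5, Meis2, Gad1 and Gad2 were close in both sets.

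Other lower genes included Samd5, transcription factors and a gene enriched in caudate and putamen. Samd5, a gene of the SAM domain family, stood at 102, 92.0 and 163 CPM with Calcr, beside 684, 718 and 463 CPM. It was found in 35.7%, 38.9% and 35.4% of Calcr-positive nuclei and in 75.7%, 81.6% and 64.6% of Calcr-zero nuclei. Thinned to 4000 UMIs, it was found in 29.6%, 27.8% and 25.0% of Calcr-positive and 70.4%, 75.4% and 58.3% of Calcr-zero nuclei. Foxp2, a transcription factor found in many D1 neurons, stood at 113, 28.3 and 134 CPM, beside 287, 334 and 263 CPM. Syndig1l, a gene enriched in caudate and putamen, had 1, 1 and 4 UMIs with Calcr, or 5.12, 7.07 and 11.6 CPM, beside 53.4, 61.3 and 51.9 CPM. Dach1, a transcription factor, had log2 ratios of -1.03, -1.20 and -1.39.

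Some of the furthest ratios rested on few Calcr-zero nuclei. Il1rapl2, a synapse-organizing receptor of the interleukin 1 family, had 2, 2 and 1 UMIs with Calcr, or 10.2, 14.1 and 2.90 CPM, beside 39.8, 73.5 and 43.5 CPM. In Calcr-zero nuclei 58 of 103, 99 of 229 and 85 of 120 of its UMIs came from 1 nucleus in each library. Zfp536, a zinc finger gene, had 1 UMI with Calcr in each library, or 5.12, 7.07 and 2.90 CPM, beside 29.8, 40.8 and 34.5 CPM, and was found in 4.58%, 3.79% and 5.05% of Calcr-zero nuclei. Emid1 had 2, 3 and 4 UMIs, or 10.2, 21.2 and 11.6 CPM, beside 76.2, 78.9 and 65.3 CPM, and it was spread over 31.0%, 35.9% and 29.0% of Calcr-zero nuclei.

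Ppargc1a encodes PGC-1alpha, the coactivator of mitochondrial gene programmes, and was lower with Calcr in each library. It stood at 496, 481 and 464 CPM, beside 1075, 1086 and 853 CPM, with log2 ratios of -1.11 (-1.42 to -0.82), -1.17 (-1.54 to -0.83) and -0.88 (-1.12 to -0.65). It was the only member called among 6 measured of 16 mitochondrial biogenesis genes. Of 76 nuclear genes of the respiratory chain 62 were measured and 2, Cox5a and Ndufb5, were called lower, on 1, 2 and 7 UMIs and on 5, 7 and 21 UMIs. Of 13 mitochondrially encoded genes 11 were measured and 0 were called. Of 31 mitophagy and autophagy genes 21 were measured and 0 were called. With 0.788% of all measured genes higher and 1.44% lower, these counts are near the background and are no result about the lists.

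Activin signalling is of interest here because Fst is a label marker. Of 43 genes of activin and BMP signalling 17 were measured, 1 was called higher and 1 lower, beside 0.788% and 1.44% of all measured genes. Acvr2a, an activin receptor, was the higher one at 133, 120 and 145 CPM, beside 74.3, 76.7 and 93.3 CPM. Its log2 ratios were 0.84, 0.65 and 0.64, and not all of their intervals left out 0. Acvr1c was the lower one, on 2, 3 and 11 UMIs. Inhba, which encodes an activin subunit, had 0, 1 and 6 UMIs with Calcr. In the purinergic list 8 of 24 genes were measured and in the retinoid list 3 of 25, and 0 were called in either.

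RNA of other cell types was present at low levels and was lower in Calcr-positive than in Calcr-zero nuclei for astrocytes and interneurons. The 10 astrocyte markers summed to 379, 368 and 494 CPM with Calcr (67 of the 170 UMIs of the urolithin A library from 1 nucleus), beside 785, 727 and 552 CPM. Aldh1l1 was at 0 with Calcr in all 3 libraries and without it in the low anxiety and urolithin A libraries, so it does not set them apart. The 10 interneuron markers summed to 143, 42.4 and 107 CPM, beside 584, 180 and 340 CPM, where 691 of 1510, 211 of 561 and 464 of 937 UMIs came from 1 nucleus. With Calcr, Lhx6, Kit, Elfn1, Pthlh and Nos1 were at 0 in all 3, which allows up to 15.4, 21.2 and 8.71 CPM each. Lhx6 was also at 0 without Calcr in the urolithin A library. The 10 oligodendrocyte markers summed to 609, 184 and 357 CPM, beside 482, 254 and 584 CPM, and 83 of 119, 4 of 26 and 66 of 123 UMIs came from 1 nucleus. The 10 microglial markers summed to 25.6, 35.4 and 37.7 CPM, beside 59.6, 57.8 and 53.7 CPM. With Calcr, the 7 vascular markers summed to 0, 1 and 2 UMIs, the 4 cholinergic markers to 0, 1 and 1 UMI and the 8 glutamatergic markers to 2, 3 and 0 UMIs. Slc4a4, an astrocyte marker on the fixed list, was among the lower genes at 348, 304 and 282 CPM, beside 658, 672 and 507 CPM. The part of astrocyte and interneuron RNA in the lower genes was not tested.

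The comparison was repeated against 5 Calcr-zero nuclei per Calcr-positive nucleus that were nearest in spiny sum. The medians of the spiny sum were then 26, 25 and 28 UMIs with Calcr and 27, 28 and 29 UMIs without it. Of the 20 higher genes 14, and of the 45 lower genes 29, were still at least 1.5-fold apart the same way in all 3 libraries. The Calcr-positive nuclei were the same, and the matched nuclei came from the same Calcr-zero nuclei that had chosen these genes. Much of this agreement was therefore built in, and it is no separate support for the calls. Slc8a1 then had log2 ratios of 1.49, 1.02 and 0.88, Cntnap5a 0.76, 1.57 and 1.00, and Samd5 -2.30, -2.20 and -1.08. Scn4b had -1.10, -1.68 and -1.01, and Itpr1 had -1.10, -0.91 and -1.04, so both were still lower. Pde1a had 0.23, 0.58 and 1.74 and Scg2 had 0.41, 0.23 and 0.63, so both fell short of the fold in the low anxiety and high anxiety libraries.

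The D2 nuclei with a spiny sum of 10 to 19 offered nuclei that had not chosen the genes. There, 31, 16 and 43 nuclei with Calcr were set against 86, 43 and 85 without it, at medians of 12, 14 and 14 and of 15, 15 and 15 in spiny sum. Of the 20 higher genes 6 stood at least 1.5-fold apart the same way in all 3 libraries and 14 had the same sign in all 3. Of the 45 lower genes 16 and 29 did so. The same counts were not made over all measured genes in these small sets. No background thus stands beside them, and they are given as a description. Samd5 had log2 ratios of -2.59, -2.97 and -3.10, Foxp2 -3.22, -3.35 and -2.38, and Ppargc1a -1.07, -0.94 and -0.99. Zdbf2 had 0.80, 0.90 and 1.07, Dgkg 0.92, 0.83 and 1.61, and Lgr6 0.73, 2.47 and 1.22. Slc8a1 had 0.29, -0.04 and -0.10 and Scg2 had -0.02, -0.54 and 0.02, so the higher levels of both inside the gate were not seen there. Scn4b, on 2, 3 and 2 UMIs with Calcr, had -2.15, 1.14 and -1.95, with the high anxiety library pointing the other way.

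Calcr-positive nuclei also lay near each other when the genes of the rule were left out. Among the 15 nearest nuclei in 20 principal components of all D2-gate nuclei, a Calcr-positive nucleus had on average 20.7%, 30.7% and 17.6% Calcr-positive neighbours in the 3 libraries. A Calcr-zero nucleus had 5.32%, 5.17% and 6.01%, and the share in the whole gate was 7.60%. The nuclei did not form 1 compact set: 37 of the 94 had at least 4 such neighbours and 9 had none. Nuclei with 1 Calcr UMI had 15.8%, 35.0% and 20.0% and nuclei with 2 or more had 22.7%, 29.5% and 16.2%, so no order by Calcr level was seen.

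The high anxiety and low anxiety libraries were compared within the Calcr-positive nuclei. A gene was measured with at least 100 UMIs over both libraries and called at 1.5-fold. Of 542 genes 22 were higher (4.06%) and 29 lower (5.35%) in the high anxiety library. Over the same genes the Calcr-zero nuclei gave 2 higher and 1 lower, from larger sums with less counting error, and 1 gene each way was called in both sets. In bulk sums of this kind, fewer nuclei with a transcript and less of it per nucleus cannot be told apart.

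Channel genes were among the lowest ratios. Trpm3, a cation channel, stood at 890 CPM in the low anxiety library, 410 CPM in the high anxiety library and 491 CPM in the urolithin A library, with a log2 ratio of high over low anxiety of -1.12 (-1.57 to -0.68) beside -0.01 in Calcr-zero nuclei. Kcnk2, a background potassium channel, stood at 522, 290 and 247 CPM, with a log2 ratio of -0.85 (-1.41 to -0.31) beside 0.27. Both were lower in the high anxiety library in Calcr-positive nuclei and short of the fold in Calcr-zero nuclei, a difference between the sets that was not tested. In the low anxiety library 38 of the 174 Trpm3 UMIs came from 1 nucleus, and with at least 2 Calcr UMIs required the Trpm3 ratio was -0.65.

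Further low ratios were those of Serinc1 at -0.99, Nf1, a negative regulator of Ras, at -0.90, Ogt, the O-GlcNAc transferase, at -0.90, and the clock gene Per3 at -0.85. Serinc1 and Ogt were lower in Calcr-zero nuclei too, at -0.52 and -0.31. Nell1, a secreted EGF-repeat gene, was the highest ratio at 1.09 (0.51 to 1.67), from 220 CPM in the low anxiety to 467 CPM in the high anxiety library, beside -0.25 in Calcr-zero nuclei. Pde1a followed at 0.99 (0.41 to 1.59), from 220 to 439 CPM, beside -0.18. Pcdh9, a protocadherin, stood at 1699 and 3176 CPM, a ratio of 0.90 (0.69 to 1.11) beside 0.15, and Ntrk2, the BDNF receptor TrkB, stood at 307 and 545 CPM, a ratio of 0.83 (0.32 to 1.34) beside 0.22. In the high anxiety library 32 of the 77 Ntrk2 UMIs came from 1 nucleus. For Pcdh9, 1 nucleus held 88 of 332 UMIs in the low anxiety and 112 of 449 in the high anxiety library. With at least 2 Calcr UMIs required, the ratios of Pcdh9 and Ntrk2 were 0.53 and 0.07.

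By fixed list, the counts for high over low anxiety were small, and 4.06% of all measured genes were higher and 5.35% lower. Of 12 measured sodium, calcium and other cation channels 3 were lower (Trpm3, Scn1a and Scn8a) and 0 higher. Of 18 measured genes of calmodulin, kinase and phosphodiesterase signalling 3 were higher, Pde1a and Pde1c among them, and 1, Camk1d at -0.81, was lower. Of 9 measured neuropeptide and hormone genes 1 was lower, the neuregulin gene Nrg3 at -0.69. Cartpt stood at 783 and 523 CPM, a ratio of -0.58 (-1.001 to -0.17), just short of the fold, beside -0.34 in Calcr-zero nuclei. Of 8 measured mitochondrially encoded genes 1 was higher, Mt-atp6 at 0.73 (0.41 to 1.05), beside 0.62 in Calcr-zero nuclei. The mitochondrial list had a median of 0.36 in Calcr-positive and 0.31 in Calcr-zero nuclei, beside 0.019 and 0 over all measured genes.

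The urolithin A library was compared with the high anxiety library, which both comparisons share. Of 910 measured genes 58 were higher (6.37%) and 23 lower (2.53%) in the urolithin A library, and 49 of the 58 had an interval that left out 0. Over the same genes 11 were higher and 1 lower in Calcr-zero nuclei, and 3 and 1 genes were called the same way in both sets. Since 18 nuclei of the high anxiety library stand on 1 side of both ratios, the values of all 3 libraries are given for the genes furthest apart.

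**Figure D4:**
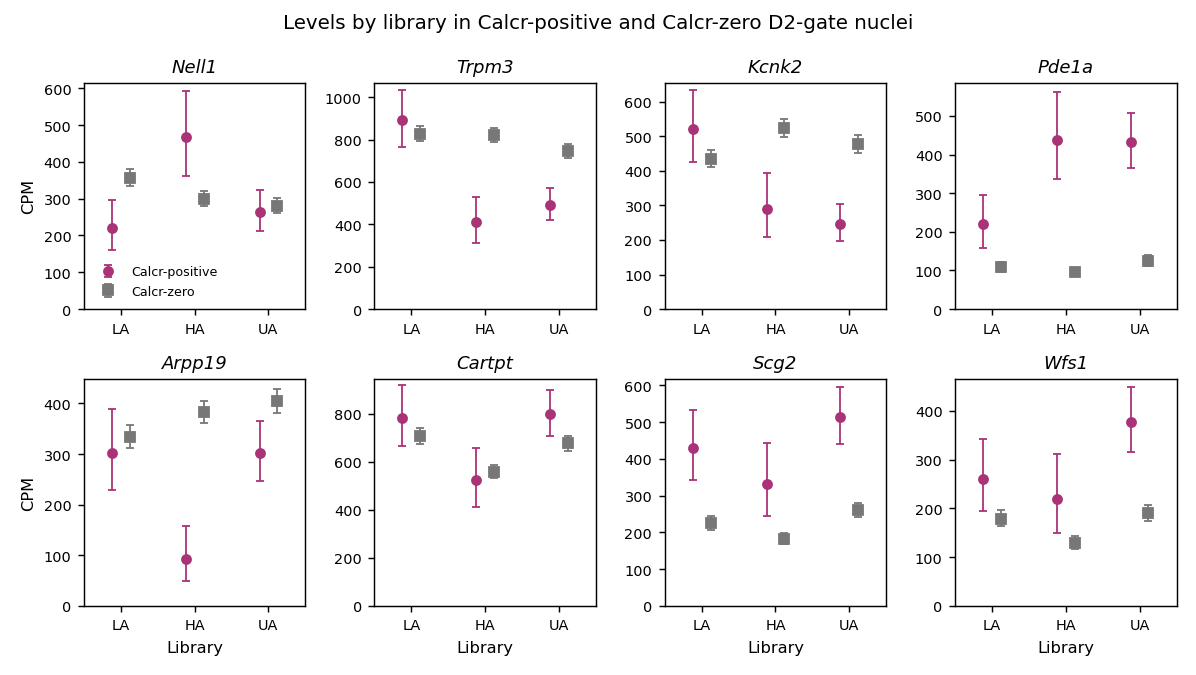
CPM of 8 genes (y axes, from 0) in the low anxiety (LA), high anxiety (HA) and urolithin A (UA) libraries, with exact Poisson 95% intervals; circles are Calcr-positive and squares Calcr-zero D2-gate nuclei. Trpm3 is at 890, 410 and 491 CPM and Arpp19 at 302, 92.0 and 302 CPM in Calcr-positive nuclei, while their Calcr-zero values vary less.

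Arpp19, a cAMP-regulated phosphoprotein, was the highest ratio of urolithin A over high anxiety. It stood at 302 CPM in the low anxiety, 92.0 CPM in the high anxiety and 302 CPM in the urolithin A library, on 59, 13 and 104 UMIs. The log2 ratio was 1.72 (0.88 to 2.67), beside 0.08 in Calcr-zero nuclei, where Arpp19 stood at 334, 383 and 404 CPM. Rabac1, an acceptor of prenylated Rab proteins, stood at 358, 184 and 441 CPM, a ratio of 1.26 (0.66 to 1.92) beside 0.22. Acap2, a GTPase activator for Arf proteins, stood at 317, 127 and 302 CPM, a ratio of 1.25 (0.52 to 2.06) beside -0.15. In these 3 genes the high anxiety library was the low one and the other libraries were closer to each other.

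Spred1, an inhibitor of Ras signalling, had a ratio of 1.16 at 154, 113 and 253 CPM, Fgd4, an exchange factor for Cdc42, of 1.15 at 210, 120 and 267 CPM, and Dcaf6 of 1.12 at 210, 141 and 308 CPM. Nf1 had 0.91, at 409, 219 and 412 CPM, beside -0.07. The lowest ratios were those of the paraspeckle gene Pspc1 at -0.99 (200, 347 and 174 CPM), the kinase gene Cdc42bpa at -0.99 (240.5, 403 and 203 CPM) and the phosphatase gene Ptprg at -0.98 (287, 325 and 165 CPM). Nell1 had -0.82 (220, 467 and 264 CPM), and Grid1, a delta-type glutamate receptor, had -0.81 (491, 686 and 392 CPM). Pde1a, at 439 and 433 CPM, had no such difference.

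Several peptide secretion genes were higher in the urolithin A library than in the high anxiety library. Of 9 measured neuropeptide and hormone genes 4 were higher and 0 lower, where 6.37% of all measured genes were higher and 2.53% lower. The list's median was 0.50, beside 0.28 in Calcr-zero nuclei and 0.001 over all measured genes. For urolithin A over low anxiety 1 of 9 members was higher and 0 lower, with a median of 0.26. Chga, which encodes chromogranin A, had a ratio of 0.69 (0.23 to 1.18) beside 0.61, and Scg2 had 0.63 (0.16 to 1.12) beside 0.51. Cartpt had 0.61 (0.23 to 0.9995) beside 0.28. It stood at 783 CPM in the low anxiety, 523 CPM in the high anxiety and 798 CPM in the urolithin A library, so the high anxiety library was the low one. Of 8 measured ventral striatum genes 3 were higher: Cartpt, Wfs1 at 0.78 (0.21 to 1.40) beside 0.55, and Resp18, a secretory granule gene, at 0.78 (0.32 to 1.26) beside 0.61. Over low anxiety 1 of 8 ventral striatum genes was higher and 0 lower, with a median of -0.05. The fourth peptide-list member was Nrg3 at 0.61, beside -0.04. Chga, Scg2, Cartpt, Wfs1 and Resp18 thus pointed the same way in Calcr-zero nuclei, and Nrg3 did not.

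Mitochondrially encoded genes had a median ratio of 0.35 in urolithin A over high anxiety, beside 0.42 in Calcr-zero nuclei, and 0 of 8 measured members were called. Of all measured genes 6.37% were higher and 2.53% lower. Mt-cyb, which encodes cytochrome b, had 0.51 (0.23 to 0.80) beside 0.59. Ppargc1a, at 496, 481 and 464 CPM in the low anxiety, high anxiety and urolithin A libraries, had -0.05 (-0.47 to 0.38). Of the mitophagy and autophagy list 2 genes were measured and 0 were called, among them Ambra1, an autophagy regulator, at 0.27 (-0.37 to 0.94). Set against the low anxiety library instead, 6 of 8 measured mitochondrially encoded genes were higher in the urolithin A library and 0 lower. Their median was 0.70, beside 0.71 in Calcr-zero nuclei. In that comparison 52 of all 1041 measured genes were higher and 29 lower. The mitochondrial share of all UMIs was 0.603%, 0.778% and 0.970% in Calcr-positive nuclei and 0.694%, 0.868% and 1.16% in Calcr-zero nuclei of the 3 libraries. This share is summed over the mitochondrial genes themselves, so it is no separate measure beside their ratios. The cause of its differences between libraries was not tested.

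Apoe, an apolipoprotein gene of astrocytes and microglia chosen after its values were seen, had 8, 34 and 148 UMIs in Calcr-positive nuclei. In the urolithin A library 126 of the 148 came from 1 nucleus with 67 astrocyte UMIs, where the next highest nucleus had 8. That nucleus had 11899 UMIs, 3 of Calcr, and was among the highest doublet scores. In the high anxiety library 25 of the 34 came from 1 nucleus. Apoe is therefore given with no statement about the groups.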

How the data were processed

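Single-nucleus RNA was measured in 3 libraries, 1 per group, with Chromium 3' chemistry and Cell Ranger 7.1.0, per the file headers. The submitters' processing notes name the build mRatBN7.2. The deposited matrices hold UMI counts per gene and nucleus, not normalized, for 23098 features, of which 1814 carry no symbol. How barcodes were filtered by the authors was not known here. The rule's members and the 37 gene lists (793 of 818 genes matched) were chosen with earlier results of these data known, and 17 of the 18 genes of the rule matched a symbol.

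Counts were summed per library and set of nuclei and divided by the set's total to give CPM. Ratios carry an exact conditional 95% interval, shares an exact Clopper-Pearson interval, and a count of 0 allows up to 3 counts. PCR duplicates are collapsed by UMI, and all intervals cover counting error only. With 1 library per group no test was run. Genes were named by a rule: the 12 highest and 12 lowest called genes between the sets, the 6 highest and 6 lowest between libraries, members of the lists and a fixed set of names. Genes outside it are said to be chosen after their values were seen. Doublet scores (scanpy 1.11.5, Scrublet) were used only in an alternative that leaves out the highest 97, 116 and 99 nuclei. edgeR 4.0.16 gave TMM factors only. Calculations used Python 3.11.15, numpy 2.4.6, scipy 1.17.1, pandas 2.3.3 and R 4.3.3, and were tested on simulated data. Some genes that the naming rule picks are not reported here.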

Additional observations from a re-analysis of the deposited data

How the results depend on the processing

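With 1 library per group no difference can be set against the spread between animals, and 18 to 48 nuclei per library limit every ratio. No paired analysis was possible because each group is 1 library. Genes higher with Calcr numbered 56, and 107 with Calcr-zero nuclei matched on total UMIs, 33 with TMM scaling, 27 at a mean of 50 CPM and 179 with no filter. Genes lower with Calcr numbered 102, and 52 at 50 CPM. The totals hide a change of genes: with matching on total UMIs, 30 of the 56 and 65 of the 102 were still called. With at least 2 Calcr UMIs these were 29 and 81. They were 33 and 64 when nuclei needed 1000 genes and no more than 1% of mitochondrial UMIs. Leaving out 1 library at a time, which asks for agreement in fewer libraries, gave 120 to 246 higher and 185 to 258 lower. Asking that the interval leave out 0, added after seeing the data, left 20 and 45.

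For high over low anxiety, 22 higher and 29 lower genes became 6 and 5 at 200 UMIs and 122 and 135 at 50 UMIs, and 9 were higher with at least 2 Calcr UMIs. For urolithin A over high anxiety, 58 and 23 became 8 and 5 at 200 UMIs and 225 and 130 at 50 UMIs, and 22 were higher with at least 2 Calcr UMIs and 31 when nuclei needed 1000 genes and no more than 1% of mitochondrial UMIs. With a spiny sum of at least 10, added after seeing the data, 36 and 47 were called for high over low anxiety and 44 were lower for urolithin A over high anxiety. The shares of the D2 gate with Calcr became 1.974%, 1.149% and 5.839% when thinned before the gate, 11.43%, 7.188% and 16.49% with a spiny sum of at least 10, and 7.075% in the urolithin A library with at least 2 Calcr UMIs. The cause of these shifts beyond the number of genes or nuclei was not tested. Ratios of named genes moved outside their counting interval in 5 of 108 cases for high over low anxiety. For urolithin A over high anxiety 0 of 108 did so. Between the sets the mean ratio over the libraries was used, with the standard deviation of the library ratios as the limit. By that limit 34 of 240 cases moved, a count not comparable with those for the library comparisons. None of the moved cases reversed.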
